A study of Mus musculus with 8 samples.

Results

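The CEBP family loci are the stretches of the mouse genome around *Cebpa*, *Cebpb*, *Cebpd*, *Cebpe* and *Cebpg*, the 5 genes of the family examined here. Every PU.1 and CEBPA peak whose centre lay in the body of one of these genes, or within 50 kb of it, was taken, whether or not another gene was nearer. This gave 67 peaks of the 67673 in the 4 peak lists of the series. The lists contributed 5 of 5288 PU.1 peaks in the empty-vector (EV) line, 12 of 15683 PU.1 peaks in the PuER line, 27 of 26119 CEBPA peaks in EV and 23 of 20583 CEBPA peaks in PuER. The genes were chosen by family and not by a rule on their peaks, but with earlier results of these data known.

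The libraries came from clonal derivatives of X18.1.1, a murine leukaemia line that arose after irradiation. It lacks one copy of *Pu.1* and carries an altered copy that has lost part of its PEST domain and has a missense change in its DNA-binding domain, so mutant PU.1 is present in every sample. The EV line (PU.1−) received a puromycin-resistance retrovirus without an insert, and the PuER line (PU.1+) received the same retrovirus with wild-type PU.1 joined to an oestrogen receptor domain, which 4-hydroxytamoxifen (OHT) activates. Both were held in 100 nM OHT for 2 h, so the EV samples are a control for OHT and for the vector. Each line was 1 clone with 1 library per antibody, so the construct and any other difference between the clones cannot be told apart, and no value below has a replicate error or a p-value. The peak lists used here give coordinates on mm10, all 400 bp wide, without heights or read counts. The depth behind each list cannot be read from these files, and a peak missing from a list does not show that the protein was not bound. Samples of H3K27Ac and IgG were not analysed here.

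CEBP proteins are basic leucine zipper transcription factors that bind DNA as dimers with themselves, with each other and with some related factors. Most members bind the same palindromic sequence, so one member can act at the gene of another or at its own gene. CEBPA is needed to form granulocyte and monocyte progenitors, CEBPB acts in macrophages and when granulocytes are produced under stress, CEBPD is induced in acute inflammation, CEBPE drives the late steps of granulocyte maturation, and CEBPG lacks a conventional activation domain and acts mainly as a partner of other leucine zipper proteins. PU.1 is an ETS factor that binds next to CEBPA at many myeloid enhancers. The peaks show where PU.1 and CEBPA were detected near these genes, and not which gene a site controls.

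The sequences below are the central 200 bp of the peaks that best show these findings, read 5′ to 3′ on the forward strand of GRCm38 (mm10). Each name gives the gene and the distance from its transcription start, with minus for upstream. Capitals mark exact matches, on either strand, to GGAAGT (the ETS core preferred by PU.1, written ACTTCC on the other strand), GAGGAAGT (a longer PU.1-type site that contains GGAAGT), TTGCNNAA (CEBP) or TGTGGT (RUNX, written ACCACA on the other strand). A match is a description of the letters, not evidence of a bound site. Among all PU.1 peaks in PuER, 58.2% held GGAAGT in the central 200 bp and 20.2% held GAGGAAGT, against 11.7% and 1.28% of windows of the same length 2000 bp to either side. TTGCNNAA was present in 46.2% of all CEBPA peaks in EV and 48.3% in PuER, against 8.26% and 8.28% of flanking windows. TGTGGT was present in 23.8% of PU.1 peaks in PuER and 15.2% of their flanks.

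The first set is the PU.1 peaks that were called in PuER and not in EV and that held an ETS core. There were 5 of them at 4 of the genes, out of 9 PU.1 peaks called only in PuER. All but the one at 37.3 kb of *Cebpa* held the longer PU.1-type site. That is 4 of the 9, where 20.2% of all PU.1 peaks in PuER held it.
Cebpa 31.82 kb, chr7:35151012-35151211: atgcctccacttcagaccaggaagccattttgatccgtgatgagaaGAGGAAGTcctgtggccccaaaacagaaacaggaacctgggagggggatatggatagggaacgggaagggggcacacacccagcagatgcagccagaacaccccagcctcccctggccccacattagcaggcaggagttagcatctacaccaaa
Cebpa 37.34 kb, chr7:35156514-35156713: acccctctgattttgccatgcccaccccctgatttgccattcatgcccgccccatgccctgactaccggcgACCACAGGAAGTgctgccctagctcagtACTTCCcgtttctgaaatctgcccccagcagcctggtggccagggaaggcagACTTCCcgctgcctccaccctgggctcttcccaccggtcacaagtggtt
Cebpd 24.04 kb, chr16:15911230-15911429: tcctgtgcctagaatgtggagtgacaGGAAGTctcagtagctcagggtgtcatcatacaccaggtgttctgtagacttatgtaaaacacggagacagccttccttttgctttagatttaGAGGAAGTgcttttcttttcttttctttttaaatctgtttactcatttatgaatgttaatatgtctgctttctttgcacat
Cebpe -0.92 kb, chr14:54712998-54713197: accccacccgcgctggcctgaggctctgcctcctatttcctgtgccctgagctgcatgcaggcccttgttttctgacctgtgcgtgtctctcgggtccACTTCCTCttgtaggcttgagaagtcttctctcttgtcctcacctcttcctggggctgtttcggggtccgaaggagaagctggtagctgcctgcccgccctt
Cebpg -9.61 kb, chr7:35066080-35066279: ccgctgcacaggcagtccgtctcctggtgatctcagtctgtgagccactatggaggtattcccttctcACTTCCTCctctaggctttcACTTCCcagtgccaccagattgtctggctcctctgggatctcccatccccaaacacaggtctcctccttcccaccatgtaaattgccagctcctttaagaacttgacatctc

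The second set is 3 of the 6 sites that had peaks of both factors. It leaves out the site 37.3 kb from *Cebpa*, printed above, the one in the untranslated region of *Cebpd*, and the one 38.2 kb upstream of *Cebpa*, which held neither an ETS core nor a CEBP site in its central 200 bp. The first and the second were called in all 4 lists and the third in all but PU.1 in EV.
Cebpa 7.77 kb, chr7:35126950-35127149: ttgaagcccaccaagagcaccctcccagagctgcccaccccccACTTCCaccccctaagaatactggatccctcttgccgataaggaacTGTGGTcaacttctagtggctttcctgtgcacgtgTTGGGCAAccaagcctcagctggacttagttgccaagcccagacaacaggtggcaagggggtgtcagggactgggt
Cebpe -42.54 kb, chr14:54754631-54754830: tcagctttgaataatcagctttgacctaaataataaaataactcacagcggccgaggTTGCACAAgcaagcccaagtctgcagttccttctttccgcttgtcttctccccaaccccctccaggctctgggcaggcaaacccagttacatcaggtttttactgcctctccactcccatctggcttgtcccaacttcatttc
Cebpg -0.68 kb, chr7:35057134-35057333: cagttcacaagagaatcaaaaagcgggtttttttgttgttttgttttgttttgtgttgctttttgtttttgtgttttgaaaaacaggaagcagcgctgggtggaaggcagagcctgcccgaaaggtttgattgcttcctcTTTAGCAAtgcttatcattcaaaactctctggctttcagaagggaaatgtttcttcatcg

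The third set is CEBPA peaks without PU.1. It holds the peak at the *Cebpa* promoter, a peak just upstream of *Cebpb* that was chosen after its values were seen, a peak called only in EV at *Cebpg*, and a peak called only in PuER at *Cebpd*. The promoter sequence held none of the 4 motifs in these 200 bp.
Cebpa -0.19 kb, chr7:35119005-35119204: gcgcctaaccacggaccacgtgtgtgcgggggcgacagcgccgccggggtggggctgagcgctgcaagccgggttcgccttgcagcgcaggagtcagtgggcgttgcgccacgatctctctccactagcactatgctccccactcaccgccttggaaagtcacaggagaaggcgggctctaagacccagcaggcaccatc
Cebpb -1.04 kb, chr2:167687782-167687981: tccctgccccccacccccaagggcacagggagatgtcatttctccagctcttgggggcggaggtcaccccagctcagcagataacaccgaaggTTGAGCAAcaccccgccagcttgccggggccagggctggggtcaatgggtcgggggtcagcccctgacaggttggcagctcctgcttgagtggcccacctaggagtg
Cebpg 1.16 kb, chr7:35055312-35055511: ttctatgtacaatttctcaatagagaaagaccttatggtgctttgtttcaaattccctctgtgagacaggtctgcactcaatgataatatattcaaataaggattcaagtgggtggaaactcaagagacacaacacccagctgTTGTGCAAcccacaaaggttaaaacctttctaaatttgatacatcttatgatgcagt
Cebpd 44.96 kb, chr16:15932149-15932348: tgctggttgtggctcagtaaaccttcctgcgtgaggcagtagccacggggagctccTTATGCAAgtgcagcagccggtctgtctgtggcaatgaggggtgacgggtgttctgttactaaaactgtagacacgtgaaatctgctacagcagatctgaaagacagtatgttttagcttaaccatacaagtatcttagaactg

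CEBPA peaks lay near every member of the family in both lines, and PU.1 peaks lay near every member in PuER and near all but *Cebpb* in EV. The only PU.1 peak of *Cebpg* in EV was also counted for *Cebpa*. For comparison, 69.3% of 21938 protein-coding genes had a CEBPA peak within 50 kb in EV and 65.3% in PuER, and 35.8% and 57.3% had a PU.1 peak, so a peak at each member is not far from what most genes have for CEBPA. The number of peaks set the members further apart than their presence. The windows, which merge to 4 stretches of 483 kb in all, held 5.6 CEBPA peaks per 100 kb in EV against 0.992 over the genome, and 4.77 against 0.782 in PuER. PU.1 peaks reached 1.04 per 100 kb against 0.201 in EV and 2.49 against 0.595 in PuER. The genome-wide values include stretches without genes, so the counts per gene are the closer comparison.

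**Figure D1:**
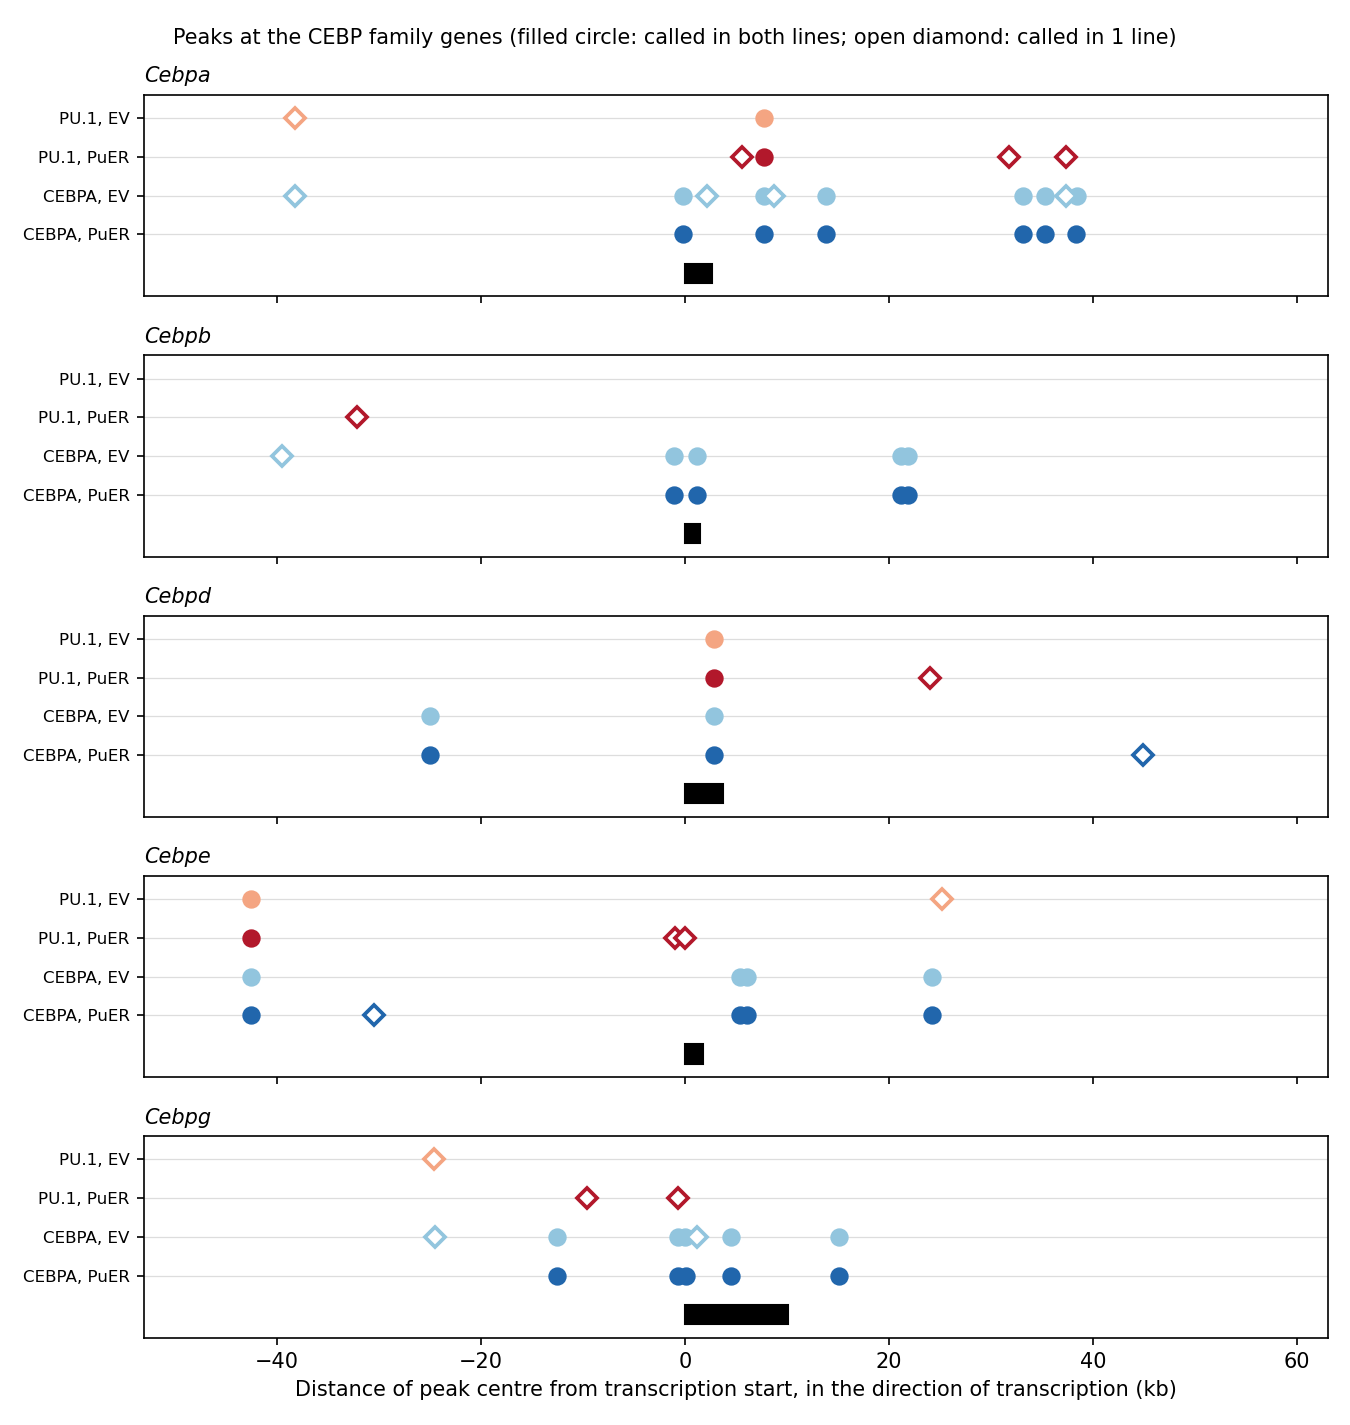
Positions of PU.1 and CEBPA peaks at each CEBP gene, with the distance of the peak centre from the transcription start in kb on the horizontal axis and 1 row per library. Filled circles are peaks called in both lines, open diamonds peaks called in 1 line, and the black bar is the gene body. *Cebpa* has 10 CEBPA peaks in EV and 6 in PuER, and each of the 5 genes has an open diamond for PU.1 in PuER.

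Within 50 kb, *Cebpa* had the most peaks of the family in every list, tied with *Cebpe* for PU.1 in EV. Its window held 10 CEBPA peaks in EV and 6 in PuER, and 2 PU.1 peaks in EV and 4 in PuER. Only 2.63% of protein-coding genes had at least 10 CEBPA peaks in EV, and 8.07% had at least 6 in PuER, where the median gene had 2 and 1. For PU.1, 13.1% of genes had at least 2 peaks in EV and 12.0% at least 4 in PuER. *Cebpg* followed for CEBPA, with 7 peaks in EV and 5 in PuER, counts that 8.9% and 13.2% of genes reached. *Cebpb* had 5 and 4 CEBPA peaks (20.3% and 21.2% of genes), *Cebpe* 4 and 5 (29.2% and 13.2%) and *Cebpd* 2 and 3 (54.1% and 32.7%). The order of the genes below *Cebpa* differed between the lines, and with 1 library per line neighbours in it cannot be separated. Out to 100 kb, *Cebpa* no longer led alone in PuER for either factor. From 50 to 100 kb it had 2 PU.1 peaks in PuER, against 6 at *Cebpb*. Its CEBPA peaks there numbered 5 in PuER, against 7 at *Cebpb* and 6 at *Cebpg*.

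**Figure D2:**
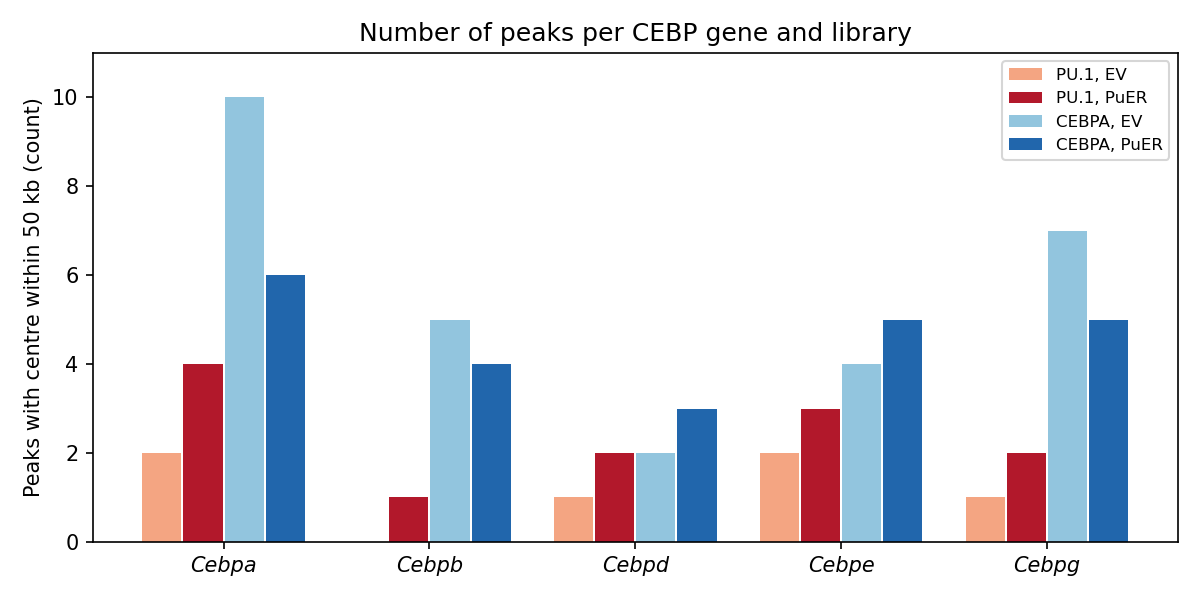
Number of peaks with their centre within 50 kb of each CEBP gene (vertical axis, counts), with 1 bar per library and no error because each library was single. *Cebpb* has no PU.1 peak in EV, and *Cebpa* is the only gene whose CEBPA count differs by more than 2 between the lines.

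**Figure D3:**
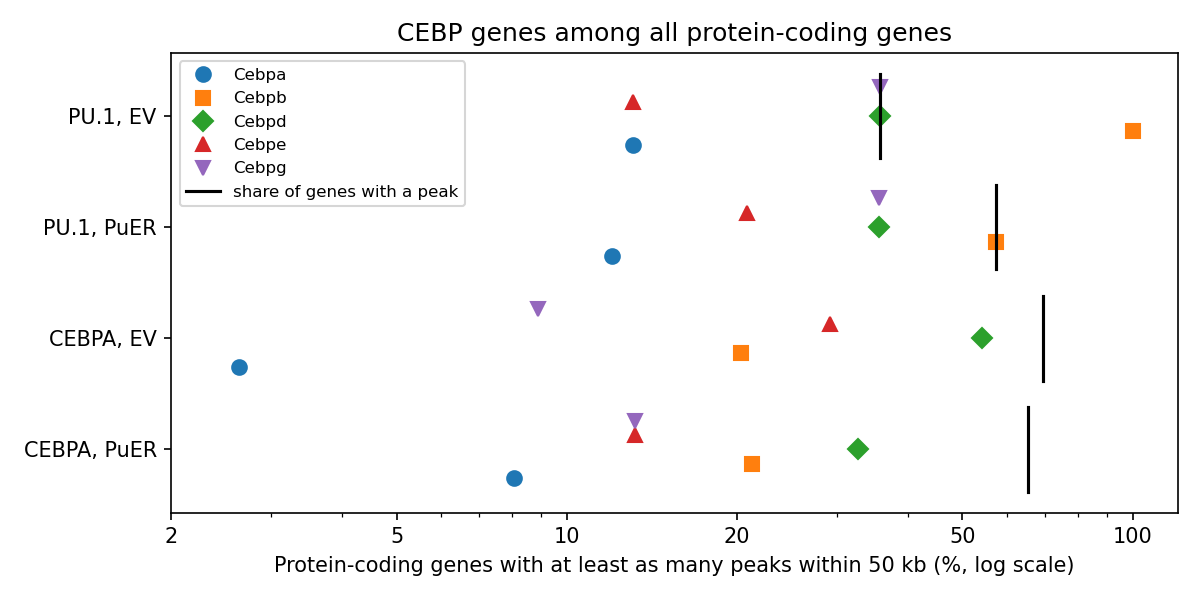
Share of 21938 protein-coding genes with at least as many peaks within 50 kb as the CEBP gene (horizontal axis, percent on a log scale), for each library. Points further left are genes with unusually many peaks, and the black line is the share of genes with any peak. *Cebpa* lies furthest left in every library, level with *Cebpe* for PU.1 in EV, and reaches 2.63% for CEBPA in EV.

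The first question was autoregulation, that is, CEBPA at its own gene. *Cebpa* is an intronless gene of 2636 bp on the forward strand (chr7:35119293-35121928), and no other protein-coding gene reached into its window. A CEBPA peak was called at the promoter in both lines, centred 0.19 kb upstream of the start, in an intron of the antisense transcript *Gm45091*. CEBPA peaks within 1000 bp of a transcript start were found at 2 members, *Cebpa* and *Cebpg*, in EV and in PuER, against 19.4% and 16.0% of all protein-coding genes. A second CEBPA peak in the transcribed region, 2.15 kb downstream of the start in the untranslated region, was called only in EV, and a TTGCNNAA site lay 2 bp from its centre. Beyond the gene, CEBPA was called in both lines at 7.77, 13.9, 33.2, 35.3 and 38.4 kb downstream. At 13.9 kb a TTGCACAA site lay 8 bp from the centre of the EV peak and 12 bp from that of the PuER peak, whereas the peaks at 33.2, 35.3 and 38.4 kb held no TTGCNNAA. CEBPA was called only in EV at 4 sites of the window, among them those at 38.2 kb upstream and at 2.15 and 37.3 kb downstream, and never only in PuER. That 4 is a count that 3.04% of protein-coding genes reached, but the window held 10 CEBPA peaks in EV, and 30.7% of all CEBPA peaks in EV were called only there. A CEBPA peak called only in PuER was also absent at 81.8% of protein-coding genes. Over the family, 3 members had a CEBPA peak called only in EV, against 44.0% of all protein-coding genes, and all 5 had one called in both lines, against 62.6%.

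PU.1 peaks at *Cebpa* differed between the lines on both sides of the gene. The site 38.2 kb upstream was called for PU.1 and CEBPA in EV and for neither in PuER, with the centres of its 2 peaks 63 bp apart, the widest spacing among the loci. This combination was uncommon, at 290 of 40138 sites of the series (0.723%). The PU.1 peak of that site held GAGGAAGT 137 bp from its centre. The PU.1 peaks called only in PuER were all downstream, at 5.64, 31.8 and 37.3 kb. The peak at 31.8 kb held GAGGAAGT 50 bp from its centre, and the peak at 5.64 kb held TGTGGT 16 bp from its centre and no GGAAGT. The one site called in all 4 lists was 7.77 kb downstream, where all the centres lay within 32 bp. As the sequence above shows, it had an ETS core, a RUNX match and a CEBP site that reads TTGGGCAA on the forward strand. The CEBP site was 28 bp from the PU.1 centre in PuER but 6 and 4 bp from the CEBPA centres in EV and PuER.

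The site 37.3 kb downstream of the start showed a reciprocal pattern of calls. A stretch at about this distance from *Cebpa* is known as a haematopoietic enhancer of the gene. CEBPA was called there only in EV and PU.1 only in PuER, with the centres 42 bp apart. Among all sites of the series 266 (0.663%) had PU.1 in PuER and CEBPA in EV alone, and no other site at the CEBP loci did. Taken singly, such calls were common, at 30.7% of all CEBPA peaks in EV and 81.1% of all PU.1 peaks in PuER. A missing call does not show that either protein was absent from this site. The central 200 bp held 3 ETS cores, at -20, 2 and 54 bp from the PU.1 centre. The first directly follows a RUNX match, so that the letters read ACCACAGGAAGT. The 400 bp of both peaks held no TTGCNNAA, and the looser TTNCNNAA was matched 11 and 12 bp from the PU.1 centre. The nearest CEBPA peaks, at 35.3 and 38.4 kb, were called in both lines.

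*Cebpg* lies 62.7 kb from *Cebpa* on the same chromosome and is transcribed in the opposite direction (chr7:35046422-35056573, reverse strand). The 50-kb windows of the pair overlap, and the site 38.2 kb upstream of *Cebpa*, with 2 peaks, is also 24.5 kb upstream of *Cebpg* and was counted for each but once in totals. Within 1000 bp of its start *Cebpg* had both factors. A site 0.68 kb upstream was called for CEBPA in both lines and for PU.1 in PuER, and its 3 centres lay within 46 bp. A second CEBPA site, 0.07 kb downstream of the start, was called in both lines without PU.1. The site at 0.68 kb held no GGAAGT and held TTTAGCAA, which is TTGCTAAA on the other strand. PU.1 called only in PuER also lay 9.61 kb upstream, in an intron of the long non-coding RNA *Gm45096*, with 2 ETS cores of which one was the longer site. CEBPA was called in both lines at 12.5 kb upstream, at 4.5 kb in the *Cebpg* intron and at 15.1 kb in an intron of *Pepd*, and only in EV at 1.16 kb in the intron, where the window held TTGTGCAA. Like *Cebpa*, *Cebpg* had no CEBPA peak called only in PuER, and 81.8% of protein-coding genes also had none.

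*Cebpe*, the gene of late granulocyte maturation, was the member with PU.1 at its start and no CEBPA there. A pair of neighbouring PU.1 peaks, centred 0.92 kb upstream and 0.01 kb downstream of the start (gene at chr14:54710360-54712174, reverse strand), were called in PuER only. PU.1 peaks within 1000 bp of a transcript start occurred at 2 members in PuER, *Cebpe* and *Cebpg*, against 8.19% of protein-coding genes, and at 0 of the 5 in EV, against 6.81%. The upstream peak held GAGGAAGT and the one at the start held no GGAAGT. CEBPA was called in both lines at 5.44 and 6.1 kb downstream, about where an enhancer of *Cebpe* bound by CEBP proteins is known, and at 24.2 kb in an intron of *1700123O20Rik*. The site called in all 4 lists was 42.5 kb upstream, in an intron of the neighbouring amino acid transporter gene *Slc7a8*. It held TTGCACAA and no GGAAGT in its central 200 bp. One CEBPA peak, 30.4 kb upstream and also in *Slc7a8*, was called only in PuER, and one PU.1 peak, at 25.2 kb in the untranslated region of *1700123O20Rik*, only in EV. Its window also held *Acin1* and *Gm29776*, so these peaks have other candidate genes.

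*Cebpd* had few peaks, and its gene body held one of the sites called in all 4 lists. That site lay 2.83 kb downstream of the start (gene at chr16:15887286-15891031, forward strand) in the untranslated region, which also falls in an intron of *Spidr*, and its 4 centres lay within 12 bp. The PU.1 peak of PuER there held 4 ETS cores, at -51, 1, 16 and 71 bp from its centre, the most of any site at the loci, and no TTGCNNAA. The first of these cores lay in the PU.1-type GAGGAAGT, which the PU.1 peak of EV also held. The other PU.1 peak of the window was called only in PuER, at 24.0 kb in an intron of *Spidr*. It held 2 ETS cores, 1 of them in a PU.1-type site. CEBPA was called in both lines 25.0 kb upstream in an intron of *Mzt2*, and only in PuER at 45.0 kb in *Spidr*, where the window held TTATGCAA. *Cebpd* and *Cebpe* were the 2 members with a CEBPA peak called only in PuER, against 18.2% of protein-coding genes. They were also the members with no CEBPA peak called only in EV, and 56.0% of protein-coding genes had none.

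Within 50 kb, *Cebpb* was the member with the least PU.1. No PU.1 peak was called in EV, and the single PU.1 peak in PuER lay 32.1 kb upstream in an intron that the annotation gives to *Tmem189* and the read-through gene *Gm20431*, without GGAAGT in its 400 bp. CEBPA was called in both lines 1.04 kb upstream of the start of the gene (chr2:167688915-167690418, forward strand) and 1.2 kb downstream of the start. The downstream peak was inside the gene, in the untranslated region. The upstream peak lay just beyond the 1000 bp that defined a promoter here, and its window held TTGAGCAA. CEBPA was also called in both lines at 21.2 and 21.9 kb, inside the long non-coding RNA *A530013C23Rik*, and only in EV at 39.5 kb upstream. PU.1 and CEBPA peaks did not overlap anywhere in the *Cebpb* window. Both this absence and the low PU.1 rank of *Cebpb* hold for the 50-kb limit only. From 50 to 100 kb it had 6 PU.1 peaks in PuER and 1 in EV, of which 3 and 1 overlapped CEBPA.

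Across the loci, PU.1 peaks in PuER were mostly called in that line only, and CEBPA peaks mostly in both lines. Of the 12 PU.1 peaks in PuER, 9 (75.0%, exact 95% confidence interval 42.8–94.5%, counting error only) overlapped no EV peak, and 81.1% of all PU.1 peaks in PuER did so. All 5 members had such a peak, against 52.7% of protein-coding genes. PU.1 was called in both lines at 3 members and only in EV at 3 members, and each of these classes was found at 21.7% of protein-coding genes. The EV-only PU.1 peak of *Cebpa* and that of *Cebpg* were the same peak, so the 3 members had 2 such peaks. Of the CEBPA peaks, 6 of 27 in EV (22.2%, 8.62–42.3%) had no counterpart in PuER, against 30.7% of all, and 2 of 23 in PuER (8.7%, 1.07–28.0%) had none in EV, against 12.1% of all. The whole-list shares lay inside these intervals, so at this number of peaks the loci could not be told from the rest of the lists.

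PU.1 and CEBPA peaks of the same line overlapped at 4 members in EV, against 21.7% of protein-coding genes, and at 4 in PuER, against 27.2%. *Cebpb* was the exception in both, within the 50-kb limit. For *Cebpg* in EV the overlap was at the site it shares with *Cebpa*. In EV 4 of the 5 PU.1 peaks overlapped CEBPA (interval 28.4–99.5%) against 57.6% of all, and in PuER 4 of 12 (33.3%, 9.92–65.1%) against 29.8% of all. Sites in all 4 lists lay at 3 members, *Cebpa*, *Cebpd* and *Cebpe*, against 12.0% of protein-coding genes. Neither of the 2 CEBPA peaks called only in PuER overlapped a PU.1 peak, and 2 peaks are too few to set the loci apart from the lists. When the peaks of the 4 lists were joined by overlap, the loci held 37 sites of 40138. CEBPA in both lines was the most frequent pattern, with 17 sites (45.9%, and 33.6% over the series), followed by PU.1 in PuER alone with 7 (18.9%, and 23.6%) and CEBPA in EV alone with 4 (10.8%, where 7267 of the 40138 sites of the series had this pattern, a larger share). The pattern of PU.1 with CEBPA in PuER and neither in EV made up 2.26% of all sites and was not found at these loci. CEBPA in PuER alone made up 3.51% of all sites and was found at 2 sites of the loci.

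The PU.1 peaks at the loci held their motif about as often as the rest of the list, judged in the central 80 bp. GGAAGT was present in 5 of 12 PU.1 peaks in PuER (41.7%, against 43.5% of all peaks and 4.44% of flanking windows) and in 2 of 5 in EV (36.5% of all and 4.6% of flanks). GAGGAAGT was found in 3 of 12 peaks in PuER, against 15.2% of all, and in 0 of 5 in EV, against 7.38% of all. All 3 were called only in PuER, the class of 9 of the 12 peaks. In the central 200 bp GAGGAAGT was in 5 of 12 peaks in PuER, against 20.2% of all, and in 1 of 5 in EV, against 11.4% of all. The EV peak and 1 of the 5 in PuER were called in both lines. In the central 80 bp, TTGCNNAA was present in 12 of 27 CEBPA peaks in EV (44.4%, against 35.6% of all and 3.27% of flanks) and in 9 of 23 in PuER (39.1%, against 38.2% and 3.25%). Among the EV peaks it was in 11 of the 21 called in both lines and in 1 of the 6 called only in EV, the one in the untranslated region of *Cebpa*, but in the central 200 bp these counts were 11 of 21 and 3 of 6, so the classes could not be told apart. The sequence of the CEBPA peaks at the loci was richer in G and C, with a median of 55.5% of the central 200 bp in either line, against 47.0% and 47.5% over all CEBPA peaks. Whether base composition plays a part in the motif counts was not tested.

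**Figure D4:**
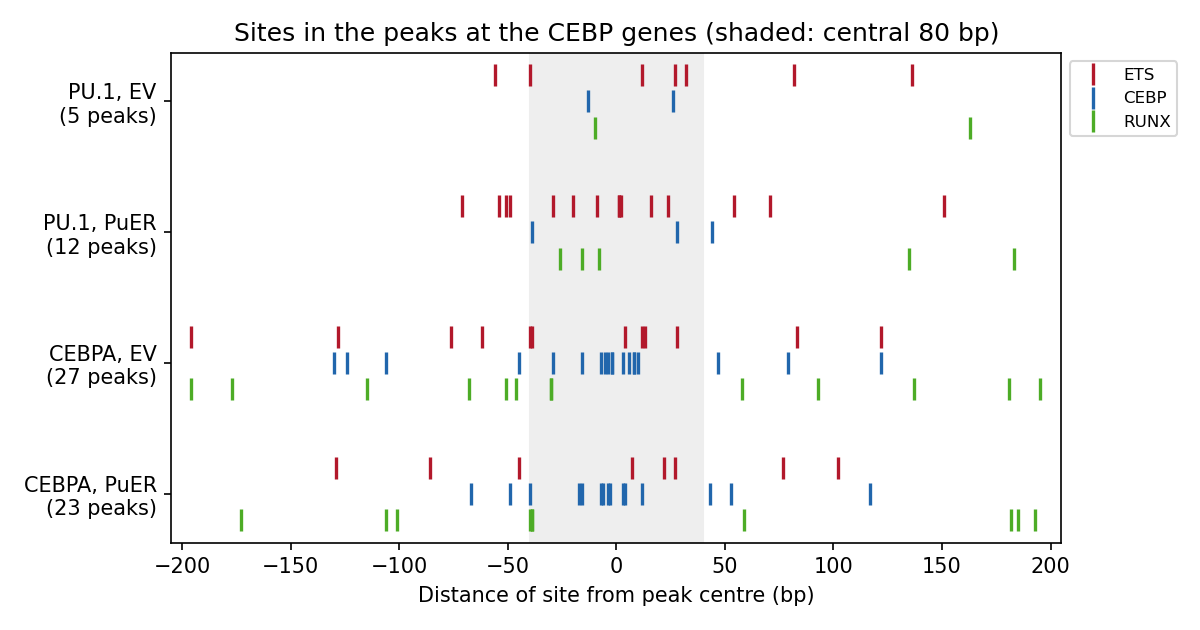
Distance of GGAAGT (ETS), TTGCNNAA (CEBP) and TGTGGT (RUNX) matches from the peak centre in bp, for all peaks at the CEBP genes in each library, with the central 80 bp shaded. CEBP matches gather around the centre of the CEBPA peaks, where 12 of 27 peaks in EV and 9 of 23 in PuER had one in the shaded part.

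The RefSeq table of promoters (GRCm38.p6) matched 3 of the 5 members, *Cebpa*, *Cebpb* and *Cebpg*. The 200 bp upstream of their starts held none of the 4 motifs on either strand. Over 32851 promoters, 16.7% held GGAAGT, 2.06% GAGGAAGT, 7.47% TTGCNNAA and 11.2% TGTGGT in this window. The absence says only that these letters are not in these stretches.

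The other genes of the pathway were described from a pair of lists, both chosen with earlier results of these data known. The first held 14 partners and regulators of CEBP proteins. All 14 had a CEBPA peak in each line, against 69.3% of all genes in EV and 65.3% in PuER, with a median of 5 in EV and 3 in PuER, where all protein-coding genes had medians of 2 and 1. A PU.1 peak lay near 7 of them in EV and 8 in PuER, against the 35.8% and 57.3% of all genes given above. *Trib1*, whose product promotes degradation of CEBPA, had 10 CEBPA peaks in EV and 11 in PuER but 1 and 0 PU.1 peaks. *Ddit3*, encoding a CEBP relative that blocks DNA binding by its partners, had 8 and 7 CEBPA peaks, and its 2 PU.1 peaks were both in PuER. *Batf3*, a leucine zipper factor of dendritic cells, had the largest PU.1 difference of this list, from 1 peak in EV to 8 in PuER, beside 6 and 5 CEBPA peaks.

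The second list held 16 genes that CEBP proteins are known to bind or regulate in myeloid cells, fat or liver. All 16 had a CEBPA peak in EV and 15 in PuER, against 69.3% and 65.3% of all genes, with medians of 3 and 2.5 against 2 and 1. PU.1 was near 9 in EV and 14 in PuER, and the same number, 14, had a PU.1 peak called only in PuER. Over all genes the shares were 35.8%, 57.3% and 52.7%. The median was 3.5 PU.1 peaks per gene in PuER against 1 over all genes. *Csf3r*, the receptor for granulocyte colony-stimulating factor, had 1 PU.1 peak in EV and 4 in PuER with 4 CEBPA peaks in each line. *Pparg*, a fat cell regulator induced by CEBP proteins, had 18 CEBPA peaks in EV and 12 in PuER, more than *Cebpa*, with 5 and 7 PU.1 peaks. The window includes the gene body, so it is wider for longer genes, and these counts were not adjusted for gene length. A CEBPA peak called only in PuER lay near 3 genes of this list and 3 of the first, against 18.2% of all protein-coding genes, so these counts are near the background.

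The likeness of other genes was measured by 6 counts, the PU.1 and CEBPA peaks called only in EV, in both lines and only in PuER. Genes whose window shared a peak with the member were left out of this comparison. Among the remaining protein-coding genes, none had the counts of *Cebpa* or of *Cebpe*. The counts of *Cebpg* were shared by 9 genes, those of *Cebpd* by 16 and those of *Cebpb* by 36.

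The 50-kb limit left some peaks just outside. The outermost peaks inside it were the 4-list site of *Cebpe*, 42.5 kb from the gene, and the PuER-only CEBPA peak of *Cebpd*, 41.2 kb from the gene body. Just outside, a PU.1 peak called only in PuER lay 50.5 kb from *Cebpb*, a PU.1 peak called only in EV 59.2 kb from *Cebpe*, and a CEBPA peak called in both lines 50.2 kb from *Cebpa*, which was counted for *Cebpg*.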

How the data were processed

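ChIP-Seq was performed with antibodies against PU.1 and CEBPA in both lines, with 1 library per antibody and line. The submitters' processing notes name Bowtie2 2.0.6, MACS2 2.0.10 and mm10. The processed files deposited by the authors that were used here held peak coordinates without read counts, so no count test was run. The calling threshold and the control for peak calling are not given in the sources used here. The members and the gene lists were chosen with earlier results of these data known.

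Peaks were assigned to protein-coding genes of the GENCODE annotation when the centre lay in the gene body or within 50 kb of it. Overlap of at least 1 bp defined peaks called in both lines and overlap between PU.1 and CEBPA. Motif sites were exact matches on both strands in the central 80 bp, or the central 200 bp where stated, with flanks 2000 bp to either side. Each member was set beside all protein-coding genes, and 95% intervals were exact (Clopper-Pearson). Sites were described one by one where they lay within 1000 bp of a start, were called in 1 line only or held both factors, and some others were added for context. Sequences were printed for those called in 1 line only or with both factors that held an ETS or CEBP site outside coding and untranslated sequence, and for promoters with a peak. One such sequence is not reported here. Genes most like a member were those with the same 6 counts, named where 3 or fewer matched. Genes whose window shared a peak with the member were left out. Overlap, assignment and motif steps were tested on simulated peaks and sequences and recovered 100% of the planted results. Alternatives changed the assignment distance (20 or 100 kb, or the nearest gene), the overlap (50% of both peaks, or centres within 100 bp), the sequence searched, the CEBP site and the background genes. Python 3.11.15, numpy 2.4.6, scipy 1.17.1, pysam 0.24.0 and matplotlib 3.10.9 were used.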

Additional observations from a re-analysis of the deposited data

How the results depend on the processing

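Assignment distance moved the counts most. Within 20 kb the loci held 2 PU.1 peaks in EV (0 called only there), 7 in PuER (5 called only there), 17 CEBPA peaks in EV (3 called only there) and 14 in PuER (0 called only there), 2 PU.1 peaks in EV overlapped CEBPA, and 1 PU.1 peak in EV and 3 in PuER held GGAAGT. Within 100 kb there were 21 PU.1 peaks in PuER, of which 17 were called only there, 8 overlapped CEBPA and 10 held GGAAGT. With peaks kept only where a CEBP gene was the nearest, 3 PU.1 peaks in EV (1 called only there) and 14 CEBPA peaks in PuER (0 called only there) were left. GGAAGT lay in 4 PU.1 peaks in EV when the whole peak was searched, and the looser CEBP site TTNCNNAA lay in 19 CEBPA peaks in EV and 16 in PuER. By construction, a wider window, a whole-peak search or a looser site can only raise a count. A narrower window or the nearest-gene rule can only lower one. The size of each change is not fixed in this way. Requiring an overlap of 50% of both peaks or centres within 100 bp changed none of the class and overlap counts. Of protein-coding genes of at most 20 kb, 32.2% had a PU.1 peak in EV and 50.2% in PuER, and 62.7% and 58.6% had a CEBPA peak. Read depth that these files do not give and single libraries limit every comparison between the lines. No paired analysis was possible because each antibody had 1 library in each line.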

Other observations

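The stretch 50 to 100 kb from *Cebpb* differed from its nearer part. It held 6 PU.1 peaks in PuER, of which 5 were called only there, and 1 in EV, where the nearer window had 1 and 0. CEBPA peaks numbered 8 in EV and 7 in PuER, and 3 of the PU.1 peaks in PuER overlapped CEBPA. In the same ring *Cebpg* had 4 PU.1 peaks in PuER, 3 of them called only there, and 1 in EV. *Cebpa* and *Cebpd* had 2 each, all called only in PuER, and *Cebpe* had 1, called only in EV. The ring of *Cebpg* reaches into the 50-kb window of *Cebpa*, so some peaks are counted for both. No share over all protein-coding genes was calculated for this ring, so how usual these counts are was not tested. *Cebpz*, a gene with the family's name whose product is not a leucine zipper protein, had 5 CEBPA peaks in EV and 4 in PuER within 50 kb, and its 2 PU.1 peaks were both called only in PuER. Of all protein-coding genes, 20.3% had at least 5 CEBPA peaks in EV and 21.2% at least 4 in PuER. At least 2 PU.1 peaks called only in PuER were found at 28.8%.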
